A study of Homo sapiens with 6 samples.

Results

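The genes described here are 9 genes of transforming growth factor beta (TGF-beta) signalling and of the plasminogen system: SERPINE2, PLAU, PLAUR, PLAT, THBS1, TGFB1, TGFB2, TGFBR2 and SMAD7. They were taken by symbol from a table of 30015 genes, and all 9 have a row. The genes were picked with their levels in these same libraries already known, so their differences between the groups are given as a description, without p-values. The study asked how gene expression in a mucosal melanoma line depends on EZH2, the histone methyltransferase of Polycomb repressive complex 2. Polyadenylated RNA of HMV-II cells, a melanoma line of vaginal origin, was sequenced in 3 Vector libraries (genotype WT, treatment none) and 3 shEZH2 libraries (genotype EZH2 knockdown, treatment none). Both lines were made with lentivirus and kept under puromycin, and the controls carried a scrambled shRNA. The table heads the groups shNC and sh1, so 1 knockdown shRNA was sequenced, and an effect of that shRNA itself cannot be told apart from loss of EZH2. Nothing in the sources used here says that the 3 libraries of a group came from separate cultures, so p-values measure only the spread between these libraries, which may be technical.

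TGF-beta ligands are secreted in a latent form and have to be activated, for example by thrombospondin 1, before they reach their receptors. The type II receptor TGFBR2 binds the ligand and phosphorylates the type I receptor TGFBR1, which phosphorylates SMAD2 and SMAD3. These enter the nucleus with SMAD4, while SMAD7 restrains the signal. In the plasminogen system, the proteases PLAT (tissue-type activator) and PLAU (urokinase) turn plasminogen into plasmin, PLAUR holds PLAU at the cell surface, and serpins such as SERPINE2 inhibit the activators. Plasmin can release latent TGF-beta, which ties the pathways together.

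Promoter sequences are shown for the 3 genes that differed past the threshold given further on, so that their base composition and motifs can be set beside their levels. Each is the 250 bases before the RefSeq transcription start (GRCh38.p14), read on the strand of the gene. Capitals mark motif matches on either strand, searched as TGANTCA (AP-1), CAGAC (SMAD), GGGCGG (GC box) and GGAATG (TEAD).
SERPINE2: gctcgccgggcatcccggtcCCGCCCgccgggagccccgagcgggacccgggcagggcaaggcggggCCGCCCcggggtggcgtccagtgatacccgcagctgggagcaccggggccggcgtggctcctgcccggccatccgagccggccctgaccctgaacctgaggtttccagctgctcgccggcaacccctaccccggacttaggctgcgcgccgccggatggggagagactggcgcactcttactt
TGFBR2: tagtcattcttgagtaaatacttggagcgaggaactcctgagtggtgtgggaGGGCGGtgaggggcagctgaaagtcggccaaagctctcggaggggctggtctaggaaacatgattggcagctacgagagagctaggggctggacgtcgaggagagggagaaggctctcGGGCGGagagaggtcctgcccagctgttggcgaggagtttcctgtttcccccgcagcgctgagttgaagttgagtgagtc
PLAUR: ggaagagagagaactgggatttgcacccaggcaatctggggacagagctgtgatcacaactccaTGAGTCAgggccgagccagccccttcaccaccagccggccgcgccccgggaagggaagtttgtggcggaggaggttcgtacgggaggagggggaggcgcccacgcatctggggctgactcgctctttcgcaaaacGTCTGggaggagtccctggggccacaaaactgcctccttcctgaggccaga
The SERPINE2 window (chr2:224038641-224038890, minus strand) has 75.2% G and C, 28 CpG dinucleotides and 2 GC boxes, at -230 to -225 and -183 to -178 from the start. The TGFBR2 window (chr3:30606351-30606600, plus strand) has 58.4% G and C, 12 CpG dinucleotides and 2 GC boxes, at -198 to -193 and -80 to -75. The PLAUR window (chr19:43670170-43670419, minus strand) has 63.2% G and C and 13 CpG dinucleotides, with 1 AP-1 match, TGAGTCA at -186 to -180, and 1 SMAD match, the reverse complement of CAGAC, at -51 to -47. Among 35116 promoter windows of this length, 6.57% held the AP-1 letters, 38% the SMAD letters, 42.6% the GC box and 11.9% the TEAD letters. A match of letters is not a binding site. The genes begin further upstream in the deposited annotation, by 679 bases for SERPINE2, 99 for TGFBR2 and 378 for PLAUR, so each start is 1 of the annotated starts. RefSeq entries matched 8 of the 9 genes, and PLAT was not matched. In the matched windows not shown, SMAD matches numbered 1 in THBS1, 2 in TGFB2 and 2 in SMAD7. GC boxes numbered 4 in THBS1 and 6 in TGFB1, and TEAD matches 1 each in THBS1 and TGFB2. PLAU had no match, and AP-1 was found in none of these windows.

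Levels are normalized counts, the reads of a gene divided by a size factor of the library, from 13400290 to 15923029 reads per Vector library and 16129171 to 19128939 per shEZH2 library. EZH2, the targeted gene, stood, in order of replicate number, at 483, 437 and 552 normalized counts in Vector and at 237, 247 and 225 in shEZH2, an order kept for all genes below. The groups did not overlap, and the log2 fold change was -1.04 (SE 0.14, n = 3 per group), with an adjusted p of 0.0142 by limma with Benjamini-Hochberg adjustment over 15251 genes. That adjusted p ran from 5.94e-08 to 0.128 over the alternatives, and the exact two-sided permutation test gave p = 0.1, the smallest that 6 libraries allow. All 8 melanocyte markers listed for the check (MITF, SOX10, PMEL and others) averaged at least 10 normalized counts, and their sum was 75515 to 100744 in Vector and 78898 to 85355 in shEZH2. By the threshold given further on, 2 of them were higher in shEZH2, TYRP1 (log2 fold change 1.68) and MLANA (0.88, with Vector replicate 2 far below its group), and 1 was lower, TYR (-0.97). Of 5 fibroblast markers, 2 reached that level (COL1A2 and LUM), and they moved in opposite directions. LUM had 166, 120 and 158 normalized counts in Vector and 209, 275 and 256 in shEZH2, and COL1A2 had 77.4, 55.9 and 63.1 against 34.3, 28.7 and 47.7. The fibroblast markers summed to 176 to 246 and 250 to 314, and COL1A1, DCN and PDGFRB stayed at or below 4.79. Of the markers analysed, epithelial ones reached it in 3 of 4, endothelial in 1 of 3 and leukocyte in 0 of 3. The epithelial markers summed to 1306 to 1720 in Vector and 1564 to 1674 in shEZH2, above the fibroblast markers, and none was called. Vector replicate 2 stood apart by gene length. Its median log2 deviation from the gene means was -0.49 for the shortest 20% of genes (up to 2323 bases) and 0.37 for the longest 20% (from 7931 bases), against -0.19 to 0.24 in the other libraries. Values without that library are given below for some of the genes, and its part in each result was not tested further.

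The 9 genes covered nearly the whole range of expression in this line. A level per length, in RPKM (reads scaled to gene length and library total), allows genes to be ranked. In Vector libraries SERPINE2 stood far above the others at a mean of 513 (range 371 to 591), and it ranked between 41 and 45 of all genes by library. PLAT (22.2), TGFBR2 (20.9) and TGFB1 (17.5) followed, then SMAD7 (3.54). THBS1 (0.579) and PLAUR (0.379) were low, TGFB2 (0.0650) was close to the limit of detection, and PLAU was at 0. Neighbours in this order whose ranges overlapped were PLAT with TGFBR2 and THBS1 with PLAUR. In shEZH2 libraries the order was SERPINE2 (273), TGFBR2 (35.5), PLAT (27.1), TGFB1 (22.5), SMAD7 (3.44), PLAUR (0.832), THBS1 (0.495), TGFB2 (0.0209) and PLAU (0.0118), and the ranges of TGFB2 and PLAU alone overlapped. TGFBR2 thus stood above PLAT, and PLAUR above THBS1, in every shEZH2 library.

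**Figure D1:**
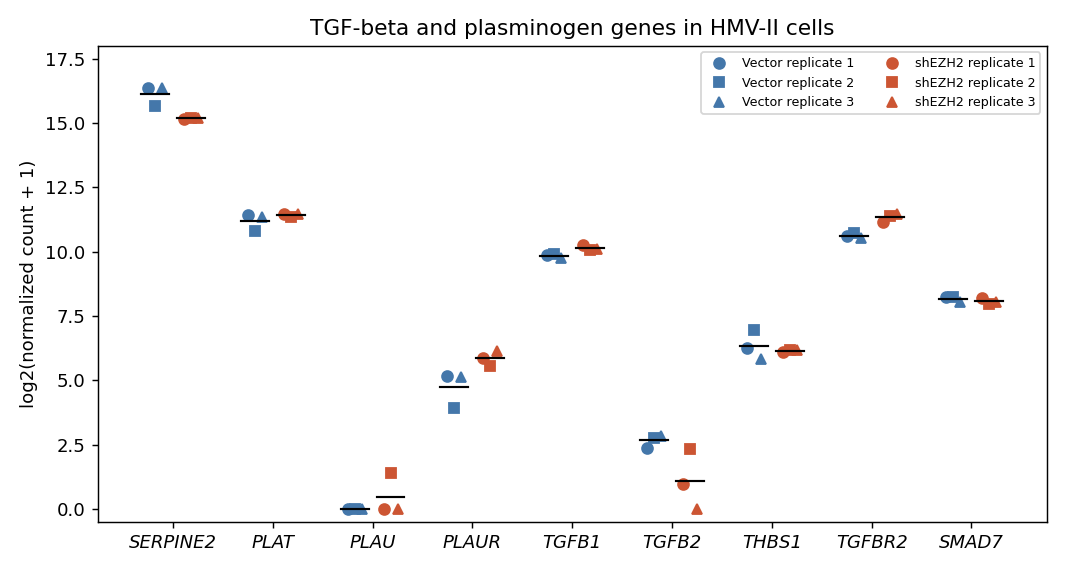
Levels of the 9 genes as log2(normalized count + 1) in each Vector (blue) and shEZH2 (orange-red) library, with a different marker shape per replicate and a line at the group mean. SERPINE2 is lower and TGFBR2 and PLAUR are higher in every shEZH2 library than in every Vector library, while PLAU and TGFB2 lie at or near 0 reads.

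A mean of at least 10 normalized counts was needed for the comparison, which 7 of the 9 genes passed. PLAU and TGFB2 did not. A gene was called when its unadjusted p was under 0.05 and its fold change was over 1.5, the study's threshold. Of all 15251 genes tested, 7.55% were called higher and 7.07% lower in shEZH2, and when the adjusted p had to be under 0.05 the shares were 2.26% and 1.83%. Of the 7 genes tested, 2 were called higher (PLAUR and TGFBR2), 1 lower (SERPINE2) and 4 neither way. With the adjusted p the counts were 1 higher (TGFBR2) and 0 lower. No overlap between groups was seen for 4 of these 7 (SERPINE2, PLAUR, TGFB1 and TGFBR2), against 34.8% of all genes tested. Since these genes were selected on this contrast, nothing is read from the counts.

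SERPINE2, also called protease nexin 1, inhibits thrombin as well as both plasminogen activators. The gene (ENSG00000135919) lies on chromosome 2 of GRCh38 from 223975112 to 224039319 on the minus strand. It had 84028, 51470 and 85233 normalized counts in the Vector libraries and 36665, 37984 and 37903 in the shEZH2 libraries. The lowest Vector library, replicate 2, was still above every shEZH2 library, and the shEZH2 libraries lay close together. The means were 73577 ± 19155 and 37518 ± 739 (SD, n = 3 each), a log2 fold change of -0.93 (SE 0.24), or 1.91-fold lower in shEZH2. Without Vector replicate 2 the log2 fold change was -1.17, and with the gene length trend removed from each library it was -0.82. SERPINE2 alone took 0.330% to 0.526% of all reads in Vector libraries and 0.239% to 0.249% in shEZH2 libraries, and its rank by level per length moved from 41 to 45 down to 95 to 117.

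The activator PLAT is encoded on chromosome 8 of GRCh38 from 42175233 to 42207724 on the minus strand. Its normalized counts were 2750, 1764 and 2590 in Vector and 2840, 2630 and 2858 in shEZH2. Vector replicate 2 was the lowest, and the ranges overlapped between Vector replicate 1 and shEZH2 replicate 2. The log2 fold change of 0.25 (SE 0.19) did not pass the threshold, and it was 0.06 (SE 0.10) without Vector replicate 2.

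PLAU, which encodes urokinase (chromosome 10 of GRCh38, 73909177 to 73917497, plus strand), had 0 reads in 5 libraries and 2 reads in shEZH2 replicate 2. A count of 0 allows up to 3 reads, or 2.40 to 3.49 normalized counts depending on the library, so no difference could be detected at this depth. This limit covers counting error only.

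PLAUR, the urokinase receptor (ENSG00000011422), lies on chromosome 19 of GRCh38 from 43646095 to 43670547 on the minus strand. It had 34.5, 13.97 and 33.6 normalized counts in Vector and 57.1, 46.3 and 68.7 in shEZH2. Every shEZH2 library was above every Vector library, with Vector replicate 2 lowest at 12 reads. The means were 27.4 ± 11.6 and 57.4 ± 11.2, a log2 fold change of 1.13 (SE 0.38), or 2.18-fold. Without Vector replicate 2 the log2 fold change was 0.72, or 1.65-fold, and PLAUR was not called without shEZH2 replicate 1 (1.12) or replicate 3 (0.99). The receptor transcript was thus present at 12 to 72 reads per library in cells in which transcripts of its ligand PLAU were at 0 to 2 reads.

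PLAT had a far higher level than PLAU, and the balance of SERPINE2 to activator transcript was therefore taken against PLAT, per length. The ratio was 22.7, 21.7 and 24.5 in Vector and 9.61, 10.7 and 9.87 in shEZH2. The ranges did not overlap, and Vector replicate 2 lay close to the other Vector libraries in this ratio although its levels of both genes were lower. The ratio covers SERPINE2 alone among the inhibitors, and it is one of transcript levels, not of protein or activity.

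**Figure D2:**
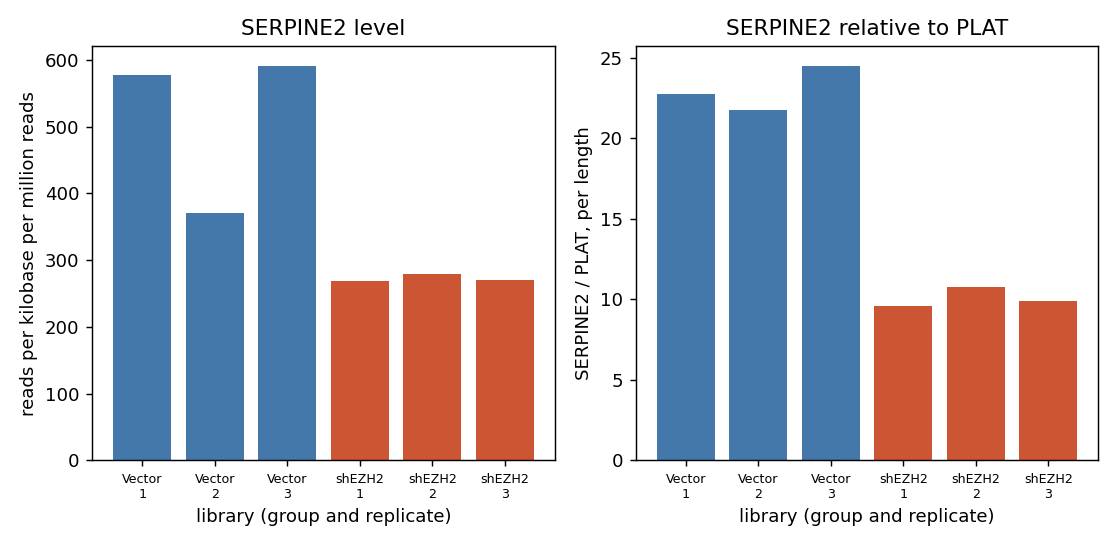
Left, level per length of SERPINE2 (RPKM, reads scaled to gene length and library total) in each Vector (blue) and shEZH2 (orange-red) library. Right, that level divided by the level of PLAT, which is 21.7 to 24.5 in Vector libraries and 9.61 to 10.7 in shEZH2 libraries.

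TGFB1, the more abundant ligand transcript of those among the 9 genes, lies on chromosome 19 of GRCh38 from 41301587 to 41353911 on the minus strand. Its normalized counts were 932, 948 and 855 in Vector and 1212, 1059 and 1101 in shEZH2. All shEZH2 libraries were above all Vector libraries, but the difference was small, with a log2 fold change of 0.30 (SE 0.13) that did not reach the threshold. It was 0.14 with the length trend removed. The span of TGFB1 overlaps those of HNRNPUL1 (mean 3791 normalized counts), CCDC97 (518) and TMEM91 (36.3) on the other strand. Overlap of exons was not examined, and the sources used here do not state whether strand was counted. Whether reads from these genes entered the count of TGFB1 is therefore not known.

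TGFB2, a second ligand gene (chromosome 1 of GRCh38, 218346235 to 218444619, plus strand), had 4, 5 and 6 reads in Vector and 1, 5 and 0 reads in shEZH2. In normalized counts these were 4.18, 5.82 and 6.11 against 0.952, 3.99 and 0. The ranges of normalized counts did not overlap, but shEZH2 replicate 2 came within a fraction of 1 normalized count of Vector replicate 1. In RPKM they did overlap, with shEZH2 replicate 2 at 0.0507 and Vector replicate 1 at 0.0496. No fold change is given at this depth.

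THBS1 (chromosome 15 of GRCh38, 39581079 to 39599466, plus strand) encodes thrombospondin 1, which activates latent TGF-beta. It had 75.3, 123 and 55.0 normalized counts in Vector and 66.7, 71.9 and 71.6 in shEZH2. The shEZH2 values fell inside the Vector range, which was wide because of Vector replicate 2. The log2 fold change was -0.19 (SE 0.30), and it changed sign to 0.12 without Vector replicate 2.

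TGFBR2 (ENSG00000163513), the receptor that binds the ligand first, lies on chromosome 3 of GRCh38 from 30606502 to 30694142 on the plus strand. It had 1552, 1684 and 1488 normalized counts in Vector and 2260, 2670 and 2829 in shEZH2. The lowest shEZH2 library was above the highest Vector library. The means were 1574 ± 99.9 and 2586 ± 294, a log2 fold change of 0.71 (SE 0.14), or 1.64-fold. Of the genes described here it moved least with Vector replicate 2 among those called, at 0.76 without that library and 0.63 with the length trend removed.

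SMAD7, the inhibitory SMAD that is itself induced by TGF-beta (chromosome 18 of GRCh38, 48919853 to 48952052, minus strand), had 297, 300 and 260 normalized counts in Vector and 289, 250 and 263 in shEZH2. The ranges overlapped, and the log2 fold change was -0.10 (SE 0.14).

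**Figure D3:**
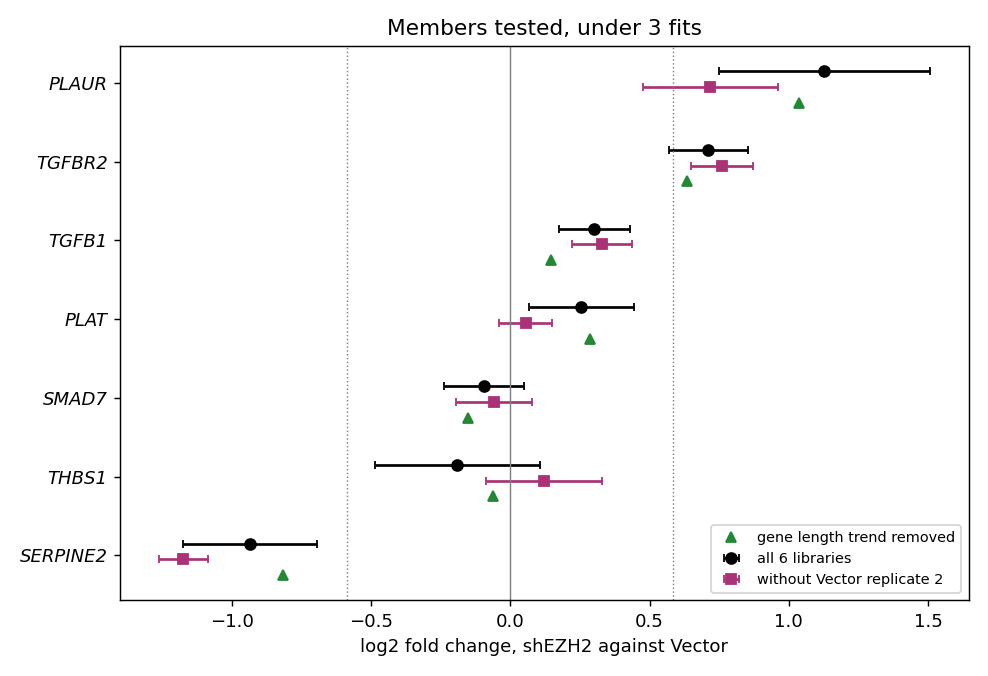
Log2 fold change (shEZH2 against Vector) of the 7 genes tested, with all 6 libraries (black), without Vector replicate 2 (purple) and with the gene length trend removed (green), where horizontal bars are standard errors and dotted lines the 1.5-fold threshold. SERPINE2, TGFBR2 and PLAUR lie beyond the dotted lines in all 3 fits, and THBS1 crosses 0.

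The genes whose pattern over the 6 libraries was nearest to the highest and the lowest of the 9 genes with at least 50 normalized counts on average were found among 11890 genes, by the root mean square difference of log2 values centred on each gene. For SERPINE2 these were TYR, the tyrosinase of pigment synthesis (0.0249), NOX4 (0.0664) and OPN3 (0.0849). TYR had a mean of 6343 normalized counts in Vector and 3148 in shEZH2, a log2 fold change of -0.97. For TGFBR2 they were HACD3 (0.0461), MAGEC1 (0.0666) and ACTN2 (0.0670).

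Other genes of the pathways were listed by their role, 76 in all, with earlier results of these data known. Of these, 70 had a row and 61 were tested. In shEZH2, 9 rose (14.8%), 2 fell (3.28%) and 50 did not pass, against 7.55% and 7.07% of all genes tested. After adjustment 5 rose and 1 fell, against 2.26% and 1.83% of all genes, and without Vector replicate 2 the counts were 10 and 3. The median log2 fold change was 0.09, against 0.04 over all genes tested. In the sentences that follow, adjusted p-values are from limma with Benjamini-Hochberg adjustment over the 15251 genes, and rose or fell refers to the same unadjusted threshold as above.

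Of the 3 other plasminogen system inhibitors tested here, 1 rose and 0 fell, against 7.55% and 7.07% of all genes tested. SERPINI1, neuroserpin, had 38.7, 11.6 and 18.3 against 40.9, 45.5 and 43.0, a log2 fold change of 1.05 (adjusted p = 0.188 by limma). Its log2 fold change was 0.67 without Vector replicate 2. SERPINI1 was not called by edgeR, nor without Vector replicate 3 or any 1 of the shEZH2 libraries. A2M, a broad protease inhibitor, had a log2 fold change of -0.05. Of 7 genes of plasminogen activation and its receptors, 1 rose. ANXA2, which binds plasminogen and PLAT at the cell surface, had 25303, 11795 and 24356 normalized counts in Vector and 52010, 48560 and 50664 in shEZH2, with Vector replicate 2 far below its group and no overlap between the groups. Its log2 fold change was 1.38 (SE 0.30, adjusted p = 0.0517 by limma), and 1.02 without Vector replicate 2. S100A10, the partner of ANXA2, which was singled out after its values were seen, had 3453, 568 and 3430 against 4318, 3291 and 3812, and its log2 fold change of 1.00 dropped to 0.14 without Vector replicate 2. ENO1, a glycolytic enzyme that also binds plasminogen, had a log2 fold change of 0.38 and did not pass. Plasminogen itself (PLG) is not analysed here.

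Of the other TGF-beta pathway genes, 0 of 10 tested in ligands, latency and activation passed, where 7.55% of all genes rose and 7.07% fell. Without Vector replicate 2, 1 of them rose. This was LTBP2, a latent TGF-beta binding protein named after its values were seen, with 190, 293 and 139 normalized counts in Vector and 290, 256 and 354 in shEZH2. Its log2 fold change was 0.58 with all libraries, 0.87 without Vector replicate 2 and 0.71 with the length trend removed, and it was called in the latter pair of fits. FURIN, the convertase that processes the ligand precursor, had the highest level of these and a log2 fold change of -0.11. Of 8 receptors, 0 rose and 1 fell. TGFBR1, the partner of TGFBR2, had 1355, 2316 and 1416 normalized counts in Vector and 924, 1166 and 1107 in shEZH2. The groups did not overlap and Vector replicate 2 was highest. The log2 fold change was -0.63 (SE 0.23, adjusted p = 0.157 by limma), and at -0.39 without Vector replicate 2 it did not reach the fold threshold. It stood beside 0.71 for TGFBR2, so the receptor pair differed in direction. ACVR1, the receptor with the highest level per length among the others, had 0.16. Of 4 SMAD effectors 0 passed, and SMAD3 had a log2 fold change of 0.42 (adjusted p = 0.171 by limma). Without Vector replicate 2 SMAD3 had 0.55 (adjusted p = 0.00265 by limma), still under the fold threshold.

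Inhibitors and feedback genes counted 2 of 11 that rose and 0 that fell, against 7.55% and 7.07% of all genes tested. SMAD6, the inhibitory SMAD related to SMAD7, had 443, 480 and 404 normalized counts in Vector and 1234, 1043 and 1178 in shEZH2. The log2 fold change was 1.38 (SE 0.14, adjusted p = 0.00607 by limma), beside -0.10 for SMAD7. The corepressor TGIF2 had a log2 fold change of 0.85 (SE 0.15, adjusted p = 0.0274 by limma). PMEPA1, a feedback inhibitor with the highest level of the group, had 0.12. Without Vector replicate 2, 2 rose and 1 fell. The latter was BAMBI, a decoy receptor named after its values were seen, with 1362, 766 and 1430 normalized counts in Vector and 999.8, 854 and 895 in shEZH2. Its log2 fold change was -0.32 with all libraries and -0.61 without Vector replicate 2.

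Of the 18 target genes tested here, 5 rose and 1 fell, with a median log2 fold change of 0.40. Over all genes tested 7.55% rose and 7.07% fell, with a median of 0.04. CTGF (also CCN2), a matricellular protein, had 759, 463 and 764 normalized counts in Vector and 5167, 5805 and 5742 in shEZH2, a log2 fold change of 3.11 (SE 0.21, adjusted p = 0.00316 by limma). CTGF is also a known target of other pathways, such as YAP and TEAD signalling. FSTL3, a follistatin-like binding protein of activins, had a log2 fold change of 1.26 (SE 0.20, adjusted p = 0.0212 by limma). FN1, fibronectin, had 54026, 79312 and 54122 against 93523, 116344 and 129364 normalized counts, a log2 fold change of 0.87 (adjusted p = 0.0949 by limma). Without Vector replicate 2 FN1 had 1.05 (adjusted p = 0.000103 by limma). TGFBI, an extracellular matrix protein, had a log2 fold change of 1.21 (SE 0.16, adjusted p = 0.0118 by limma). IL11 rose too (1.11, adjusted p = 0.0800 by limma) and is named after its values were seen. Its log2 fold change was 0.85 without Vector replicate 2. TNC, tenascin C, fell, with 11539, 21175 and 11686 in Vector and 4892, 5216 and 6058 in shEZH2, a log2 fold change of -1.40 (SE 0.26, adjusted p = 0.0303 by limma). Without Vector replicate 2, 5 target genes rose and 2 fell. The detected fibroblast markers moved in opposite directions beside the target genes. LUM had a log2 fold change of 0.74 and COL1A2 of -0.83, and their part in the matrix genes was not tested.

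**Figure D4:**
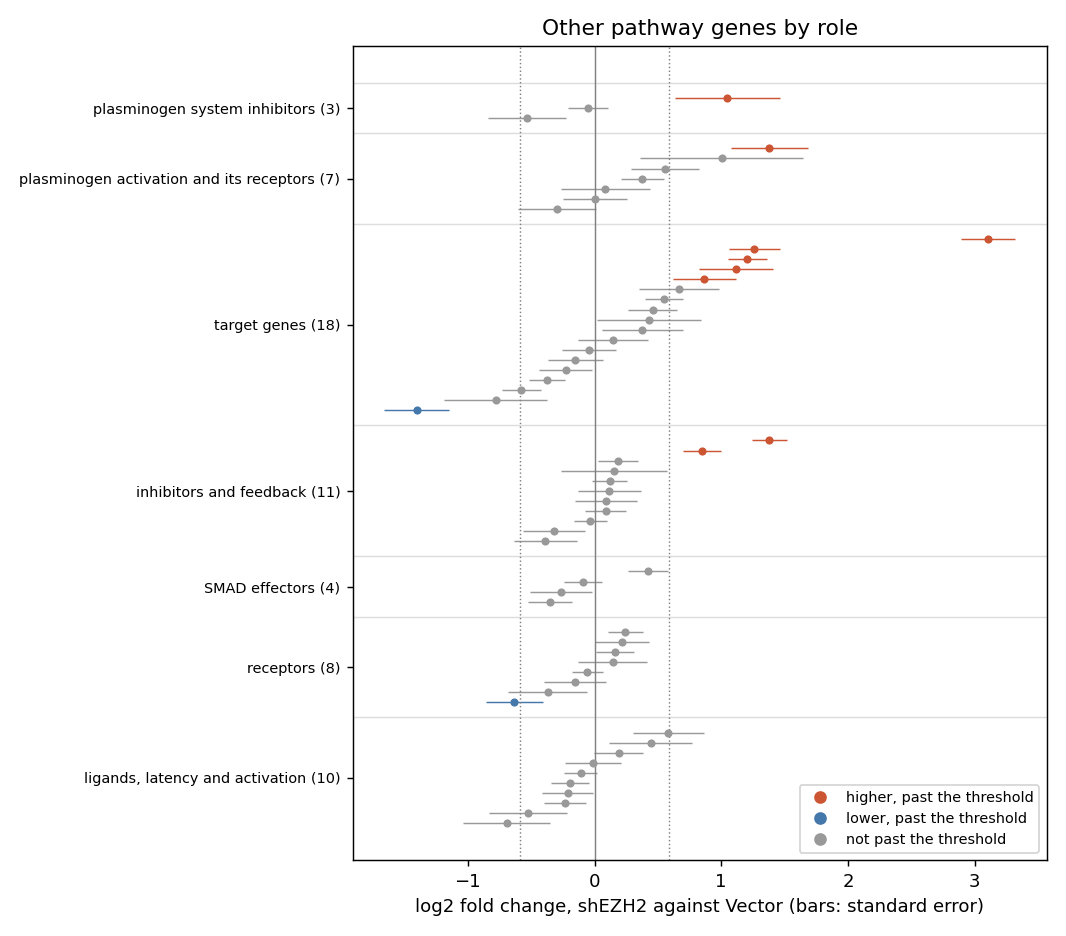
Log2 fold change (shEZH2 against Vector, bars are standard errors) of the 61 other pathway genes tested, by role, with the number tested in brackets, dotted lines at the 1.5-fold threshold, and orange-red and blue for genes that rose and fell. Among target genes, 5 of 18 lie among those that rose and 1 among those that fell.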

How the data were processed

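RNA-seq of 3 Vector and 3 shEZH2 libraries was used. The deposited table holds signal values, that is, reads per gene counted by the authors with FeatureCounts 1.5.0-p3 and divided by a size factor per library. The submitters' processing notes also name hg19 and DESeq2 1.20.0, and the aligner and strand setting are not given in the sources used here. The gene coordinates are GRCh38, since 29.4% of 20592 genes shared an end with RefSeq GRCh38.p14 and 0.524% with GRCh37. The authors' group means, log2 fold changes and p-values were not used, and 0 library columns were left out. Reads were recovered from the value of 1 read in each library (100% whole, tolerance 0.01).

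Groups were compared without a replicate block with limma 3.58.1 on log2(normalized count + 1). The added count shrinks fold changes of low genes within limma, as for PLAUR at 1.16, 1.13 and 1.01 with pseudocounts of 0.1, 1 and 5. The count models gave PLAUR lower values than the main fit, 1.05 by edgeR with TMM and 1.04 by DESeq2. The test covered 15251 genes averaging 10 normalized counts or more, with Benjamini-Hochberg adjustment. Alternatives were edgeR 4.0.16 and DESeq2 1.42.0 on the recovered reads, pseudocounts of 0.1 and 5, no minimum or a mean of 50, TMM scaling, a replicate block, a length trend removed by loess, an adjusted p, and each library left out. The models were tested on simulated data. R 4.3.3, Python 3.11.15, pandas 2.3.3 and matplotlib 3.10.9 were used.

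The 9 genes and the lists were chosen with earlier results of these data known. Of the listed genes, those named are, in each role, up to 3 highest and 3 lowest log2 fold changes past the threshold and the highest level per length. The results of 1 listed gene are not reported here, and it is left out of the counts by role. PLG, KLKB1, LRRC32, NRROS, POSTN and PTHLH, and the markers KRT5, CDH5 and CD3E, are not analysed here. Neither is the ChIP-seq.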

Additional observations from a re-analysis of the deposited data

How the results depend on the processing

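Most values kept their direction and their side of the threshold. When the adjusted p had to be under 0.05, genes called higher and lower over the whole table numbered 345 and 279, the 9 genes gave 1 (TGFBR2) and 0, and the other pathway genes gave 5 and 1. On the recovered reads edgeR with TMM factors called 1086 genes higher and 1191 lower, and DESeq2 1045 and 1321, against 1151 and 1078 by limma. Among the 9 genes, 1 was called higher with a minimum mean of 50, which leaves out PLAUR, and 2 were called lower with no minimum, where TGFB2 enters. With 1 library left out at a time, 1 to 2 of the 9 genes were called higher, with 1 (TGFBR2) without shEZH2 replicate 1 or 3. Other pathway genes called lower numbered 1 to 4, with 4 without Vector replicate 1 and 1 without shEZH2 replicate 3. THBS1 ran from -0.46 to 0.12 and A2M from -0.12 to 0.06 in log2 fold change. THBS1 reversed without Vector replicate 2 (0.12), and A2M without Vector replicate 2 (0.03) or shEZH2 replicate 1 (0.062). TGFBR1 was not called without Vector replicate 2, shEZH2 replicate 1 or shEZH2 replicate 3, and SERPINI1 was not called by edgeR or without Vector replicate 3 or any 1 of the shEZH2 libraries. The adjusted p of CTGF stayed under 0.05 in every alternative (at most 0.0484), while without shEZH2 replicate 3 (for TNC, replicate 1) that of SMAD6, FSTL3, TGIF2, TGFBI and TNC reached 0.0803, 0.140, 0.171, 0.110 and 0.149. The cause was not tested where none is given.

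The replicate numbers showed no clear pairing of the libraries. Correlations of deviations were 0.28, 0.22 and -0.11 between libraries of the same number, and -0.31 to 0.25 between different numbers. With a replicate block 1322 genes were called higher and 1112 lower, among the 9 genes 2 and 1, and among the other pathway genes 9 and 2. Depth limited PLAU and TGFB2, which had at most 6 reads in any library, and PLAUR, at 12 to 72 reads.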
